A study of Mus musculus with 12 samples.

Results

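Messenger RNA of the interleukin 1 family and the inflammasome was followed through 10 genes in dendritic cells (DC) of the inflamed mouse lung. They were the cytokine genes Il1a, Il1b and Il18, the genes of their inhibitors Il1rn, Il1r2 and Il18bp, and the inflammasome genes Nlrp3, Pycard, Casp1 and Casp4. A probe set, the group of array probes that reports a transcript, was a member where the platform annotation gave it exactly 1 of these symbols. Of 45037 probe sets without controls, 14 met this rule, with 3 each for Il1rn and Pycard and 1 for each other gene. The probe set of the highest mean over the 12 arrays stood for its gene, and the others served as a check. All 10 genes were among the 10934 genes tested, out of 18193 genes with a probe set of their own. The probe set used for Il1a exceeded the median of its array on 11 of 12 arrays and those of the other 9 genes on all 12, so none was tested only through the population where it was high.

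The cells were sorted at a purity above 93% from lungs of male C57BL/6J mice aged 8 to 12 weeks, 16 h after the airway had received 50 ul of buffer with 100 ug of ovalbumin and 100 ng of lipopolysaccharide. There were 4 populations: Ly6Chi moDC, which were CD11bhi, Ly6Chi and labelled inf.moDCs; CD14hi moDC, which were CD11bhi and CD14hi; CD14lo cDC, which were CD11bhi and CD14lo; and CD103+ cDC. The labels write moDC for the first pair and cDC for the second, the usual short forms of monocyte-derived and conventional DC. Each population had 3 arrays, each from RNA of cells pooled from 20 mice, and this small number limits the precision. Every array analysed here came from treated mice, so no value is set against resting lung. Signals are MAS5 intensities in arbitrary units, which can be compared between arrays for a probe set but not between probe sets. Differences are on the scale of log2(signal + 50), with the standard error of the limma model, and differences count as called where the p adjusted by Benjamini and Hochberg's method over all 10934 genes was below 0.05. The added 50 makes folds of dim genes too small.

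The median signal of an array lay between 72.2 and 108, and arrays of the same population correlated at 0.973 to 0.983 across genes. The ratio of 3' to 5' signal of Gapdh, a measure of RNA quality, averaged 1.66 in Ly6Chi moDC, 1.68 in CD14hi moDC, 1.85 in CD14lo cDC and 2.74 in CD103+ cDC, where replicates 1 and 3 reached 3.26 and 3.27. Mean signals of Cd14 were 10836, 11669, 1537 and 968, and those of Itgae, which encodes CD103, 86.5, 140, 855 and 15179, in that order of populations. The labels name both antigens, so this match is no independent check. The 5 conventional DC markers summed to means of 930, 3759, 11278 and 21322, and 7 monocyte and macrophage markers to 47952, 45702, 13402 and 5534. Of 5 CD103+ DC markers, Cadm1 was also high in CD14hi moDC, with means of 49.3, 2868, 262 and 3811. Summed signals of 8 neutrophil markers, of which 4 passed the signal filter, ran from 4150 to 4417 in Ly6Chi moDC, 1113 to 2236 in CD14hi moDC, 962 to 1331 in CD14lo cDC and 358 to 1891 in CD103+ cDC. Of the 4 that passed, S100a8, S100a9 and Csf3r had their highest means in Ly6Chi moDC (1257, 1214 and 1533). The remaining one, Mmp8, averaged 160 there and 11.8, 11.1 and 12.6 in the other populations, so it passed only through Ly6Chi moDC. Cxcr2, Ltf, Ngp and Camp averaged at most 77.5 in any population. Of these, Cxcr2 had its highest mean in Ly6Chi moDC and Ltf, Ngp and Camp in CD14hi moDC. Summed signals of 7 alveolar macrophage markers ran from 6297 to 8158, 1821 to 4383, 1289 to 7941 and 1409 to 5130, and those of 7 lung epithelium markers from 1915 to 2851, 2664 to 3560, 1625 to 4335 and 4628 to 8986, in the same order. The alveolar macrophage sum in Ly6Chi moDC was mostly Chil3, at a mean of 6685. Marco, Siglecf, Fabp1, Car4, Krt79 and Cidec all had their lowest means in Ly6Chi moDC. The lung epithelium sum was mostly Scgb1a1, at means of 1964, 2359, 2659 and 4857. Summed signals of 6 fibroblast markers ran from 3024 to 4668 in Ly6Chi moDC, 4886 to 5856 in CD14hi moDC, 1472 to 1837 in CD14lo cDC and 1739 to 2310 in CD103+ cDC, so that every moDC array lay above every cDC array. The fibroblast sum was mostly Mgp, at means of 2939, 4067, 1135 and 1299. Each other fibroblast marker was dimmer, with higher means in both moDC populations than in either cDC population. Among them Col1a1 differed little (171, 190, 147 and 154). Markers of T cells (3 genes) and of mast cells and basophils (4 genes) stayed below the filter.

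Interleukin 1 alpha and beta signal through the same receptor, and interleukin 18 through a related one. Interleukin 1 beta and interleukin 18 are made as inactive precursors that caspase-1 cuts, after a sensor such as NLRP3 and the adaptor ASC have assembled into an inflammasome. Messenger RNA of Il1b and Nlrp3 is known to rise when lipopolysaccharide is sensed, a step called priming, while cutting and release need another signal, so a message level says nothing of secreted cytokine. The family carries its own inhibitors: a receptor antagonist (Il1rn), a decoy receptor that does not signal (Il1r2) and a soluble binding protein for interleukin 18 (Il18bp).

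Il1a, Il1b and Il1rn lie on the same chromosome, and the results on cytokines and their inhibitor turn on how differently these 3 were distributed. Their promoters are therefore shown as the 250 bases before the start of the transcript, 5′ to 3′ on the gene's own strand, from RefSeq on build GRCm38.p6. The windows are chr2:129309973-129310222 on the minus strand for Il1a, chr2:129371140-129371389 on the minus strand for Il1b and chr2:24336610-24336859 on the plus strand for Il1rn, which has 3 start sites in that table. Capitals mark matches to a TATA box (TATAAAA) or to the binding motif of AP-1 (TGANTCA).
Il1a: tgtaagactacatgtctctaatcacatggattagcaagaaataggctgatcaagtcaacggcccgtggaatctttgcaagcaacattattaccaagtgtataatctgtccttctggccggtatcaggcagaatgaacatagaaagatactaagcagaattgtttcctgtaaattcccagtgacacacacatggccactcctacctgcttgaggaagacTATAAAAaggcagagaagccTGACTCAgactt
Il1b: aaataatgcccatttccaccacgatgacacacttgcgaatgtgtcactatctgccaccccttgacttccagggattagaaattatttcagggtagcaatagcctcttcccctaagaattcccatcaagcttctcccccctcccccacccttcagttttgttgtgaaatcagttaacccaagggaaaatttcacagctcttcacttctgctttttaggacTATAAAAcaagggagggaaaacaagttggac
Il1rn: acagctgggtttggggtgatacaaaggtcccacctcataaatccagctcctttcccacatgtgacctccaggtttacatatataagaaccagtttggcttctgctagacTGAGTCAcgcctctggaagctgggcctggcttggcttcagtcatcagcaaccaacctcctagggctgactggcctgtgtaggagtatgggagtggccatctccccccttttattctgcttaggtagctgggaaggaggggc
Of the 10 genes, all had a promoter in the table, in 14 windows, and 3 had more than one window. A search on both strands, with no overlap between matches, found TATAAAA in 2 of the 14 windows: its first letter lay 32 bases before the start of Il1a and 31 bases before that of Il1b. TGANTCA was found in 2 windows, 12 bases before the start of Il1a and 141 bases before the start of Il1rn shown. A form of the NF-kB motif that begins with GGGA and ends with TTTCC, with any 1 base between, was found in 0 of the 14. Other forms of the NF-kB motif were not searched, so this count does not show that the windows lack such sites. Among 32851 promoters of the same length, 4.98% held TATAAAA, 6.75% TGANTCA and 0.356% that form of the NF-kB motif. A match or its absence describes these letters in these windows only.

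Across the main division, 7 of the 10 genes were higher in the moDC (the mean of Ly6Chi moDC and CD14hi moDC) than in the cDC (the mean of CD14lo cDC and CD103+ cDC), against 41.5% of all genes called, 20.7% higher and 20.8% lower. The 10 genes and the pathway lists were chosen with earlier results of these data known. Such shares, here and below, are therefore descriptions and no test. Il18, Il1r2 and Casp4 were not called. Il1rn led with a 4.83-fold higher level in the moDC (log2 difference 2.27 ± 0.22, adjusted p = 1.3e-07), followed by Il1a at 3.28-fold (1.71 ± 0.20, adjusted p = 1.3e-06) and Nlrp3 at 2.37-fold. Smaller differences were found for Pycard (1.85-fold), Il18bp (1.66-fold), Il1b (1.43-fold) and Casp1 (1.36-fold). The median log2 difference was 0.62 over the 10 genes and -0.00092 over all genes. Only for Il1a, Il1rn and Il18bp did no moDC array overlap with a cDC array, 3 of 10 against 11.7% of all genes. The summed fibroblast markers divided the arrays the same way, and their part in these results was not tested. In bulk samples like these, fewer cells with a message and less message per cell cannot be told apart.

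The cDC populations differed from each other in all 10 genes. Between CD14lo cDC and CD103+ cDC, 7 genes were higher in CD14lo cDC (Il1b, Il1rn, Il1r2, Nlrp3, Pycard, Casp1 and Casp4) and 3 were lower (Il1a, Il18 and Il18bp), against 28.7% of all genes called, 15.3% higher and 13.4% lower. Arrays of the 2 sides did not overlap for 8 of the 10 genes, against 39.2% of all genes. Without CD14lo cDC replicate 3 the count fell to 6, all of them higher in CD14lo cDC. Il1b, Il1rn, Nlrp3, Pycard and Casp1 were lowest in CD103+ cDC, being called against each of the other 3 populations. Il1a and Il18bp were lowest and Il1r2 was highest in CD14lo cDC by the same criterion, and Il18 and Casp4 had no population that stood apart. Ly6Chi moDC and CD14hi moDC differed in 1 gene, Pycard, against 18.2% of all genes called, 6.81% higher and 11.4% lower. It was also the 1 gene whose arrays did not overlap there, against 36.0% of all genes. The comparisons share arrays and are not independent of each other. The Gapdh ratio was highest in CD103+ cDC, where those 5 genes were lowest. Leaving out its replicates 1 and 3 left CD103+ cDC with 1 array, which was then assumed to vary like the other populations. In that fit Il1b, Il1rn, Pycard and Casp1 were called against each other population and Nlrp3 against both moDC populations, and the part of RNA quality was not tested. The summed neutrophil markers were highest in Ly6Chi moDC, and their part in these results was not tested.

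Against CD14lo cDC, Ly6Chi moDC had higher levels of 5 genes (Il1a, Il18, Il1rn, Il18bp and Nlrp3) and a lower level of Il1r2, with 25.2% of all genes called, 11.2% higher and the rest lower. Arrays did not overlap for 7 of the 10 genes, against 39.4% of all genes. CD14hi moDC had higher levels of Il1a, Il1rn and Il18bp and a lower level of Il1r2, with 16.2% of all genes called, 9.24% higher and 6.95% lower. Arrays did not overlap for 6 of the 10 genes, against 32.5% of all genes. Against CD103+ cDC, 8 genes were higher in Ly6Chi moDC, all but Il18 and Casp4, with 47.5% of all genes called, 24.3% higher and 23.2% lower. In CD14hi moDC 7 genes were higher, all but Il18, Il1r2 and Il18bp, with 37.2% of all genes called, 20.3% higher and 16.9% lower. The medians of the 10 log2 differences against CD103+ cDC were 1.02 for Ly6Chi moDC and 0.99 for CD14hi moDC, while those of all genes were 0.02 and 0.01. Arrays of the 2 sides did not overlap for 8 genes in each of these comparisons, against 53.3% and 45.8% of all genes.

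**Figure D1:**
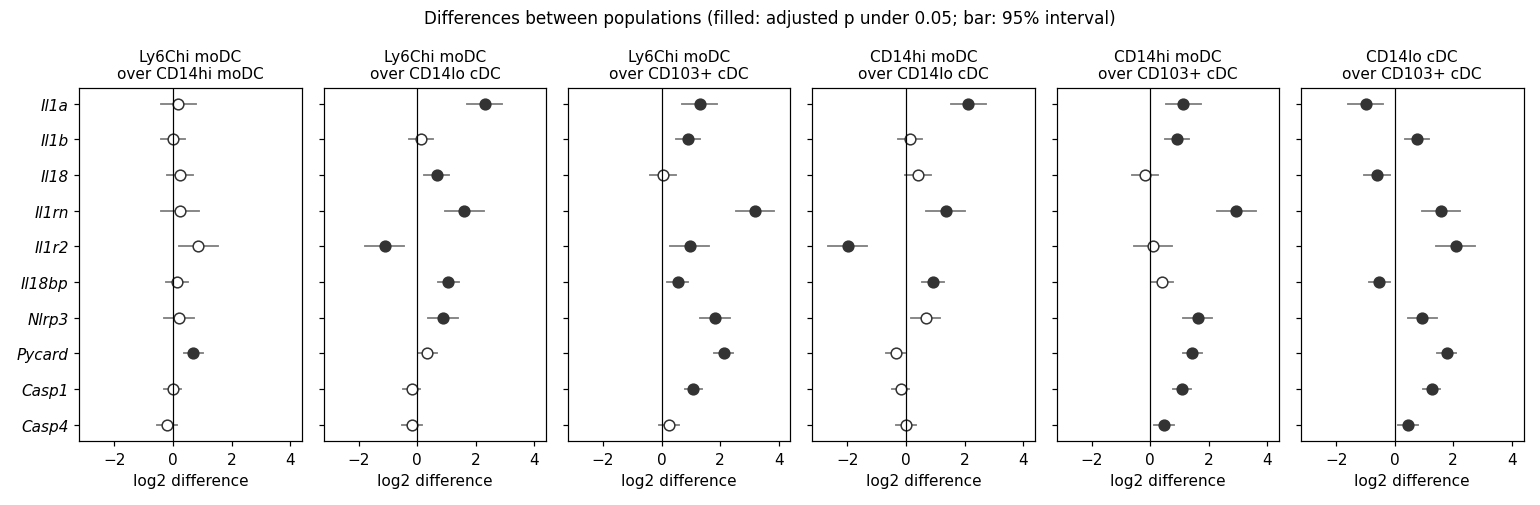
Log2 differences of the 10 genes (rows) in the 6 comparisons between populations (panels), as log2(signal + 50) of the population named first minus that of the other. Circles are model estimates over 3 arrays each, bars 95% intervals, filled circles adjusted p below 0.05. In the first panel only Pycard is filled, at 0.69, and in the last all 10 are filled, with Il1a, Il18 and Il18bp left of 0.

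Il1a encodes interleukin 1 alpha, which needs no cutting by caspase-1 to be active and is released from dying cells. Its signals were 1127, 523 and 856 in Ly6Chi moDC, 1041, 577 and 568 in CD14hi moDC, 194, 108 and 83.1 in CD14lo cDC, and 269, 365 and 257 in CD103+ cDC. Every moDC array lay above every cDC array, and the CD14lo cDC arrays lay below all others. Relative to CD14lo cDC, Il1a was 4.92-fold higher in Ly6Chi moDC (log2 difference 2.30 ± 0.28, adjusted p = 5.1e-06) and 4.35-fold higher in CD14hi moDC (2.12 ± 0.28, adjusted p = 2.7e-05). Relative to CD103+ cDC it was 2.47-fold higher in Ly6Chi moDC and 2.18-fold higher in CD14hi moDC (adjusted p = 0.00088 and 0.0040). With CD103+ cDC replicate 2 as the only array of its population, these log2 differences were 1.03 and 0.85, in place of 1.30 and 1.13, and neither was called (adjusted p = 0.066 and 0.16). Il1a was 1.99-fold lower in CD14lo cDC than in CD103+ cDC (log2 difference -0.99 ± 0.28, adjusted p = 0.013), a call lost without CD14lo cDC replicate 3 (0.069) or CD103+ cDC replicate 2 (0.052).

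Il1b, the gene of interleukin 1 beta, which drives fever and recruits neutrophils, had another pattern. Its signals were 15402, 14909 and 13544 in Ly6Chi moDC, 13161, 11671 and 20268 in CD14hi moDC, 16089, 10574 and 14073 in CD14lo cDC, and 9620, 6147 and 8020 in CD103+ cDC. The 3 CD11bhi populations overlapped, and all CD103+ cDC arrays lay below them. Il1b was 1.87-fold higher in Ly6Chi moDC than in CD103+ cDC (log2 difference 0.90 ± 0.19, adjusted p = 0.00085), 1.87-fold higher in CD14hi moDC (adjusted p = 0.0012) and 1.71-fold higher in CD14lo cDC (0.77 ± 0.19, adjusted p = 0.0056). No difference was called among the CD11bhi populations, and the 95% intervals of these log2 differences were -0.41 to 0.41 for Ly6Chi moDC over CD14hi moDC and -0.28 to 0.53 for each moDC population over CD14lo cDC.

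Il18, the gene of interleukin 18, which promotes interferon gamma production by T and NK cells, varied least of the 3 cytokine genes. Its signals were 762, 974 and 883 in Ly6Chi moDC, 1000, 694 and 546 in CD14hi moDC, 695, 544 and 399 in CD14lo cDC, and 806, 861 and 835 in CD103+ cDC. The CD14lo cDC arrays lay below those of Ly6Chi moDC and CD103+ cDC and overlapped with those of CD14hi moDC. Il18 was 1.57-fold higher in Ly6Chi moDC than in CD14lo cDC (log2 difference 0.66 ± 0.21, adjusted p = 0.027) and 1.51-fold lower in CD14lo cDC than in CD103+ cDC (-0.60 ± 0.21, adjusted p = 0.039). Neither call was firm. The first was lost without Ly6Chi moDC replicate 2 (0.10) or 3 (0.071) or CD14lo cDC replicate 2 (0.052) or 3 (0.16). The second was lost without CD14lo cDC replicate 2 (0.069) or 3 (0.20) or any of CD103+ cDC replicates 1, 2 and 3 (0.068, 0.083 and 0.084). In limma the second was also lost with no filter (adjusted p = 0.064) and without the intensity trend (0.053).

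**Figure D2:**
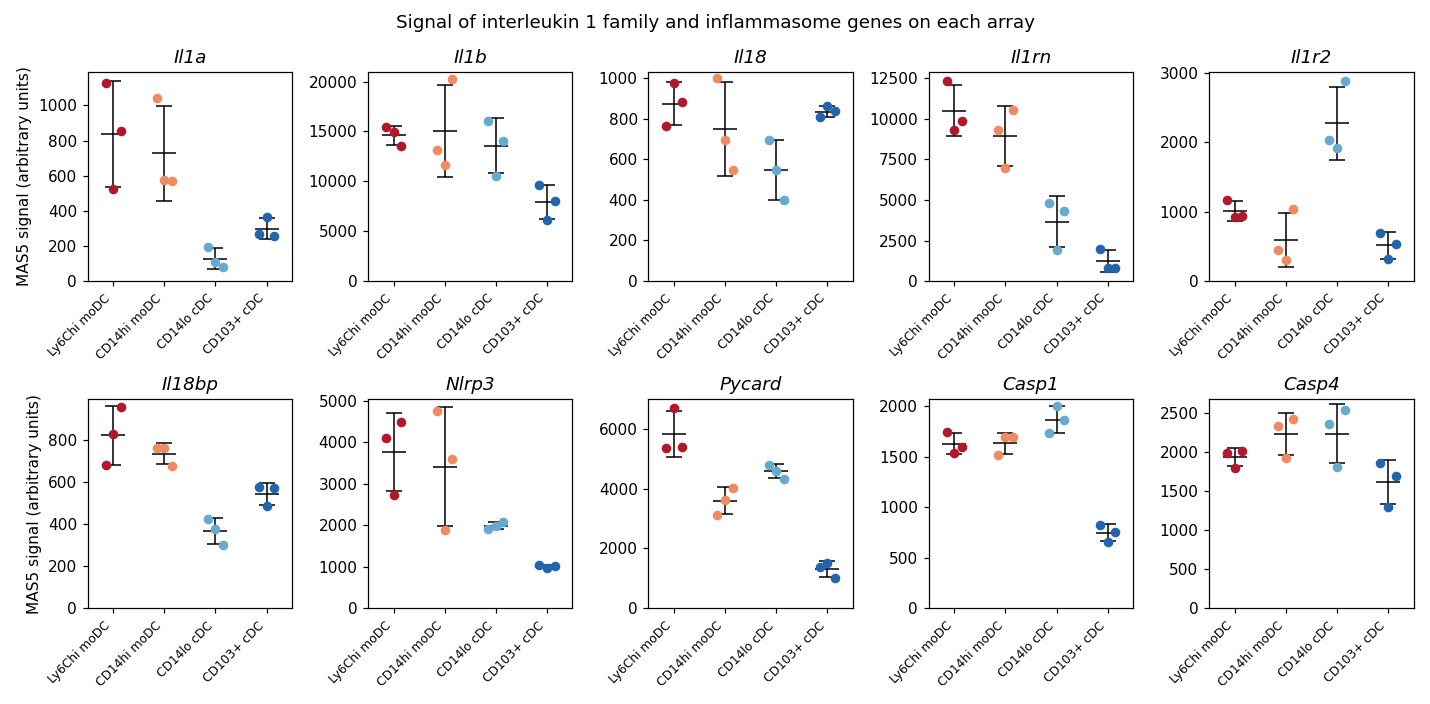
MAS5 signal (arbitrary units, linear axes from 0) of the 10 genes on each of the 12 arrays. Points are arrays, long lines means and short caps 1 SD of the 3 arrays of a population. Il1b, Il1rn, Il1r2, Nlrp3, Pycard, Casp1 and Casp4 have their lowest mean in CD103+ cDC, and Il1a, Il18 and Il18bp in CD14lo cDC. Il1r2 has its highest mean, 2275, in CD14lo cDC.

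Among the inhibitors, Il1rn, which encodes the receptor antagonist that occupies the interleukin 1 receptor without activating it, spanned the widest range of the 10 genes. Its signals were 12297, 9335 and 9881 in Ly6Chi moDC, 9304, 6936 and 10537 in CD14hi moDC, 4817, 1888 and 4299 in CD14lo cDC, and 1990, 802 and 834 in CD103+ cDC. The moDC arrays lay above all cDC arrays, and the cDC populations overlapped only through CD14lo cDC replicate 2 and CD103+ cDC replicate 1. Il1rn was 9.08-fold higher in Ly6Chi moDC than in CD103+ cDC (log2 difference 3.18 ± 0.31, adjusted p = 1.1e-07), 7.67-fold higher in CD14hi moDC (2.94 ± 0.31, adjusted p = 5.8e-07) and 2.99-fold higher in CD14lo cDC (1.58 ± 0.31, adjusted p = 0.00086). Relative to CD14lo cDC it was 3.04-fold higher in Ly6Chi moDC and 2.56-fold higher in CD14hi moDC (adjusted p = 0.00076 and 0.0050). The other 2 probe sets of Il1rn were called in the same comparisons and directions, at 8.93-fold and 11.4-fold for Ly6Chi moDC over CD103+ cDC. The array with the highest Il1rn among CD103+ cDC, replicate 1, also had the highest summed signals there of neutrophil (1891), alveolar macrophage (5130) and lung epithelium markers (8986), whose part in the result was not tested.

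Il1r2 encodes the decoy receptor, which binds interleukin 1 and does not signal, and it was the one gene of the 10 called higher in CD14lo cDC than in each other population. Its signals were 1169, 920 and 938 in Ly6Chi moDC, 448, 306 and 1034 in CD14hi moDC, 2030, 1917 and 2878 in CD14lo cDC, and 692, 312 and 541 in CD103+ cDC. All CD14lo cDC arrays lay above all others, and CD14hi moDC replicate 3 stood well above the other arrays of its population. Il1r2 was 3.97-fold lower in CD14hi moDC than in CD14lo cDC (log2 difference -1.99 ± 0.31, adjusted p = 0.00017) and 4.23-fold higher in CD14lo cDC than in CD103+ cDC (2.08 ± 0.31, adjusted p = 5.8e-05). It was 2.17-fold lower in Ly6Chi moDC than in CD14lo cDC (-1.12 ± 0.31, adjusted p = 0.013), a call lost without CD14lo cDC replicate 3 (0.068). Ly6Chi moDC had 1.94-fold more than CD103+ cDC (adjusted p = 0.017), which was lost without Ly6Chi moDC replicate 1 (0.066) or CD103+ cDC replicate 2 (0.10). Between Ly6Chi moDC and CD14hi moDC the log2 difference of 0.87 ± 0.31 was not called (adjusted p = 0.065), but was 1.32 without CD14hi moDC replicate 3 (0.0020) and was called without CD103+ cDC replicate 2 (0.046), with centring on the array median (0.98, adjusted p = 0.042), with only the arrays compared (0.05 after rounding) and with the replicate block (0.021). Without the same 2 arrays in turn, the difference between moDC and cDC, which was -0.51 with all arrays (adjusted p = 0.074), was called at -0.74 (0.0028) and -0.66 (0.022), and with the replicate block it was called at -0.51 (0.028).

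Il18bp, whose product binds interleukin 18 in solution, followed the order of Il1a. Its signals were 678, 825 and 956 in Ly6Chi moDC, 762, 763 and 677 in CD14hi moDC, 422, 376 and 299 in CD14lo cDC, and 577, 484 and 569 in CD103+ cDC. Every moDC array lay above every cDC array, and the CD14lo cDC arrays were the lowest. Il18bp was 2.09-fold higher in Ly6Chi moDC than in CD14lo cDC (log2 difference 1.06 ± 0.17, adjusted p = 0.00013) and 1.90-fold higher in CD14hi moDC (0.92 ± 0.17, adjusted p = 0.00089). It was 1.46-fold higher in Ly6Chi moDC than in CD103+ cDC (adjusted p = 0.015), a call lost without Ly6Chi moDC replicate 3 (0.080) or CD103+ cDC replicate 2 (0.055). It was 1.43-fold lower in CD14lo cDC than in CD103+ cDC (adjusted p = 0.031), lost without CD14lo cDC replicate 2 (0.051) or 3 (0.15) or CD103+ cDC replicate 1 (0.085) or 3 (0.085). This call was also lost in limma with only the arrays compared (adjusted p = 0.07).

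Of the inflammasome genes, Nlrp3 encodes the sensor that responds to potassium efflux and membrane damage. Its signals were 4101, 2721 and 4494 in Ly6Chi moDC, 4750, 1900 and 3602 in CD14hi moDC, 1918, 1997 and 2072 in CD14lo cDC, and 1039, 975 and 1012 in CD103+ cDC. CD103+ cDC arrays were lowest and close to each other, and only CD14hi moDC replicate 2 reached down to the level of CD14lo cDC. Nlrp3 was 3.53-fold higher in Ly6Chi moDC than in CD103+ cDC (log2 difference 1.82 ± 0.24, adjusted p = 4.6e-06), 3.07-fold higher in CD14hi moDC (adjusted p = 3.0e-05) and 1.93-fold higher in CD14lo cDC (0.95 ± 0.24, adjusted p = 0.0059). With CD103+ cDC replicate 2 as the only array of its population, the last log2 difference was 1.00 and not called (adjusted p = 0.074). Relative to CD14lo cDC, Nlrp3 was 1.83-fold higher in Ly6Chi moDC (adjusted p = 0.011), lost without Ly6Chi moDC replicate 3 (0.063). In CD14hi moDC the log2 difference from CD14lo cDC was 0.67 ± 0.24 and not called (adjusted p = 0.070), but was 1.03 without CD14hi moDC replicate 2 (0.0013).

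Pycard encodes ASC, the adaptor that links sensors to caspase-1, and was the gene that differed between the moDC populations. Its signals were 5370, 6705 and 5402 in Ly6Chi moDC, 3121, 3631 and 4023 in CD14hi moDC, 4791, 4604 and 4328 in CD14lo cDC, and 1392, 1517 and 1016 in CD103+ cDC. The populations did not overlap, with Ly6Chi moDC highest and CD103+ cDC far below the rest. Pycard was 4.36-fold higher in Ly6Chi moDC than in CD103+ cDC (log2 difference 2.12 ± 0.15, adjusted p = 1.7e-09), 2.70-fold higher in CD14hi moDC (1.43 ± 0.15, adjusted p = 6.3e-07) and 3.45-fold higher in CD14lo cDC (1.79 ± 0.15, adjusted p = 6.4e-08). It was 1.61-fold higher in Ly6Chi moDC than in CD14hi moDC (0.69 ± 0.15, adjusted p = 0.0036). CD14lo cDC were not told apart from Ly6Chi moDC (0.34, adjusted p = 0.13) or from CD14hi moDC (-0.35, adjusted p = 0.15, as CD14hi moDC over CD14lo cDC), although their arrays did not overlap with either. A dimmer second probe set of Pycard was called against CD103+ cDC in all 3 comparisons too, but not between the moDC populations (log2 difference 0.42 ± 0.21, adjusted p = 0.20), and the remaining, dimmest one had adjusted p of 0.14 or more in all 7 comparisons (limma over 25156 probe sets). With the mean of its probe sets the difference between the moDC populations was 0.30 and not called (adjusted p = 0.24).

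Casp1, the gene of the protease that cuts both precursors and gasdermin D, was nearly level in the CD11bhi populations and lower in CD103+ cDC. Its signals were 1743, 1542 and 1599 in Ly6Chi moDC, 1516, 1693 and 1694 in CD14hi moDC, 1739, 2005 and 1861 in CD14lo cDC, and 829, 658 and 757 in CD103+ cDC. The highest CD103+ cDC array lay far below the lowest of the others. Casp1 was 2.11-fold higher in Ly6Chi moDC than in CD103+ cDC (log2 difference 1.08 ± 0.14, adjusted p = 3.5e-06), 2.12-fold higher in CD14hi moDC and 2.41-fold higher in CD14lo cDC (1.27 ± 0.14, adjusted p = 1.3e-06). The interval for Ly6Chi moDC over CD14hi moDC was -0.30 to 0.29.

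Casp4 encodes mouse caspase-11, which binds intracellular lipopolysaccharide and cuts gasdermin D without NLRP3. Its signals were 1997, 1804 and 2013 in Ly6Chi moDC, 2338, 1931 and 2435 in CD14hi moDC, 2366, 1817 and 2540 in CD14lo cDC, and 1863, 1306 and 1695 in CD103+ cDC, the narrowest range of the 10 genes. Casp4 was 1.37-fold higher in CD14hi moDC than in CD103+ cDC (log2 difference 0.46 ± 0.16, adjusted p = 0.033) and 1.37-fold higher in CD14lo cDC (0.46 ± 0.16, adjusted p = 0.042). The first call was lost without CD14hi moDC replicate 1 (0.097) or 3 (0.11) or CD103+ cDC replicate 2 (0.15). In limma it was also lost with centring on the array median (adjusted p = 0.12) and without the intensity trend (0.054). The second call was lost without CD14lo cDC replicate 1 (0.12) or 3 (0.18) or CD103+ cDC replicate 2 (0.17) or 3 (0.061). It was lost, too, without Ly6Chi moDC replicate 1 (0.054) or 3 (0.051) or CD14hi moDC replicate 1 (0.052), arrays that enter only through the shared spread. Other limma settings that lost it were quantile normalization (adjusted p = 0.062), centring (0.10), no filter (0.061), only the arrays compared (0.092) and no intensity trend (0.068).

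The balance of cytokine and inhibitor message on an array was described by differences of log2 signals, which have no test here and whose absolute size reflects the probe sets. Il1b minus Il1rn was 0.48 ± 0.18 in Ly6Chi moDC, 0.73 ± 0.22 in CD14hi moDC, 1.96 ± 0.43 in CD14lo cDC and 2.77 ± 0.48 in CD103+ cDC (SD, n = 3 each). No moDC array reached the cDC arrays, the highest being 0.94 in CD14hi moDC and the lowest 1.70 in CD14lo cDC. CD103+ cDC, which had the least Il1b, had the highest mean of Il1b relative to Il1rn. Its replicate 1, at 2.25, lay below CD14lo cDC replicate 2, at 2.45, so the cDC populations overlapped. Il1a minus Il1rn was -3.63 ± 0.35, -3.56 ± 0.50, -4.32 ± 0.71 and -1.75 ± 0.84 in the same order, with the CD103+ cDC arrays above all others. Il18 minus Il18bp was 0.09 ± 0.18, -0.01 ± 0.34, 0.50 ± 0.15 and 0.58 ± 0.17, a smaller spread in which 1 CD14hi moDC array, at 0.37, overlapped with the cDC. Relative to the decoy receptor the order was another: Il1b minus Il1r2 was 3.80 ± 0.14, 4.67 ± 0.41, 2.55 ± 0.36 and 3.86 ± 0.21, lowest in CD14lo cDC and highest in CD14hi moDC.

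**Figure D3:**
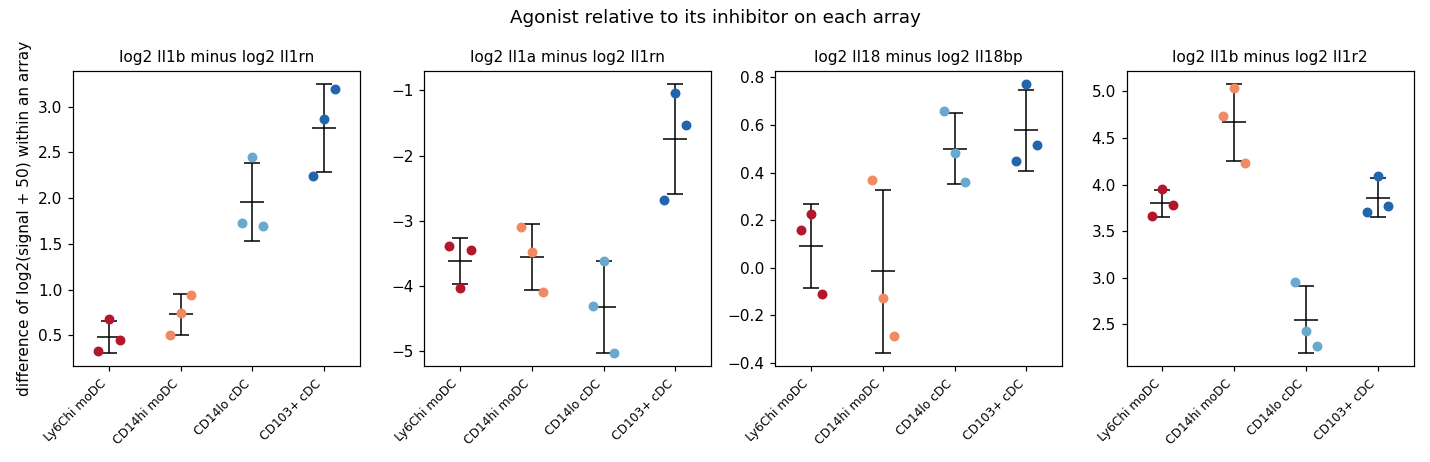
Difference of log2(signal + 50) between a cytokine gene and an inhibitor gene on each of the 12 arrays, with mean and SD of 3 arrays per population. In the first panel, Il1b minus Il1rn, all 6 moDC arrays lie at or below 0.94 and all 6 cDC arrays at or above 1.70. The vertical axes differ and do not start at 0.

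Receptors of the family were read from a list of 13 genes, of which 8 had a probe set and 6 passed the filter. The accessory chain Il1rap and the interleukin 36 receptor gene Il1rl2 were higher in the moDC and Sigirr, the gene of a receptor that dampens interleukin 1 signalling, was lower, while Il1r1, Il18r1 and Il18rap were not called there. Sigirr had signals of 13.9, 69.8 and 48.4 in Ly6Chi moDC, 101, 164 and 157 in CD14hi moDC, 330, 490 and 370 in CD14lo cDC, and 606, 501 and 628 in CD103+ cDC. The means ascended in the order of populations given, every moDC array lay below every cDC array, and Sigirr was lower in the moDC than in the cDC (log2 difference -2.01 ± 0.17, adjusted p = 1.8e-08). Its Ly6Chi moDC arrays lay below their array's median, so no fold is given. Il1rl2, with means of 305, 393, 228 and 78.5 by population, was 2.12-fold higher in the moDC (adjusted p = 9.4e-06). For Il1rl2, CD103+ cDC replicates 2 and 3 lay below their array's median (101 against 103 and 44.9 against 91.1). The size of this fold thus depends on the constant added to the signal. Il1rap, at 477, 328, 338 and 195, was 1.46-fold higher in the moDC (adjusted p = 0.0094), but not with the mean of its probe sets (0.24, adjusted p = 0.15).

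Il1r1 and Il18r1 had their lowest means in Ly6Chi moDC. Il1r1, which encodes the chain that binds interleukin 1, had means of 33.0 in Ly6Chi moDC, 149 in CD14hi moDC, 159 in CD14lo cDC and 45.4 in CD103+ cDC, and was lower in Ly6Chi moDC than in CD14lo cDC (log2 difference -1.36 ± 0.32, adjusted p = 0.0039). All arrays of Ly6Chi moDC and CD103+ cDC lay below their array's median for Il1r1, so that the size of these differences depends on the added 50 and no fold is given. Il1r1 passed the filter only through arrays of CD14hi moDC and CD14lo cDC, where it was high, which limits what its calls can show. Il1r1 was higher in CD14lo cDC than in CD103+ cDC (1.22 ± 0.32, adjusted p = 0.0082), but 0.48 and not called (0.50) with replicate 2, at 98.1, as the only CD103+ cDC array. The lower value in Ly6Chi moDC than in CD14hi moDC (-1.26 ± 0.32, adjusted p = 0.0093) was lost without Ly6Chi moDC replicate 3 (0.064) or CD14hi moDC replicate 2 (0.055). Il18r1, of the interleukin 18 receptor, had means of 90.4, 339, 267 and 232 and was 2.94-fold lower in Ly6Chi moDC than in CD14hi moDC (adjusted p = 0.00012). Its partner chain gene Il18rap had 116, 224, 449 and 98.5, and was 3.32-fold higher in CD14lo cDC than in CD103+ cDC (1.73 ± 0.27, adjusted p = 6.8e-05). For Il18r1, Ly6Chi moDC replicate 1 lay below its array's median (41.5 against 83.0). For Il18rap, CD103+ cDC replicate 2 did so (74.7 against 103). The sizes of these folds thus depend on the constant added to the signal. The median log2 difference of the 6 genes was -1.31 for Ly6Chi moDC over CD14lo cDC, where 4 were lower and 2 not called, and -0.01 over all genes, of which 25.2% were called.

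Of 10 tested genes that act below these receptors (of 11 in the list), 3 were higher in the moDC, 3 were lower and 4 were not called, against 20.7% of all genes higher and 20.8% lower. Irak3 encodes IRAK-M, a kinase relative known as a brake on this pathway, and led the list. Its signals were 1125, 989 and 779 in Ly6Chi moDC, 964, 793 and 816 in CD14hi moDC, 343, 445 and 413 in CD14lo cDC, and 97.3, 89.8 and 59.3 in CD103+ cDC. Irak3 thus descended in the same order of populations as Il1rn and Nlrp3, 3.93-fold higher in the moDC than in the cDC (log2 difference 1.98 ± 0.13, adjusted p = 8.1e-10) and 7.66-fold higher in Ly6Chi moDC than in CD103+ cDC. For Irak3, CD103+ cDC replicates 2 and 3 lay below their array's median (89.8 against 103 and 59.3 against 91.1). The size of these folds thus depends on the constant added to the signal. Between Ly6Chi moDC and CD103+ cDC the log2 difference was 2.94, and ran from 2.54 to 3.41 over the alternative settings. Traf6, the gene of the ubiquitin ligase below the IRAK kinases, was 1.84-fold lower in the moDC (adjusted p = 0.00052), with CD103+ cDC replicate 1 at 3939 against 1728 and 2754 in the other two. With replicate 2 as the only CD103+ cDC array, the log2 differences from CD103+ cDC were -0.70 in Ly6Chi moDC and -0.50 in CD14hi moDC, in place of -1.31 and -1.10, and were not called (adjusted p = 0.073 and 0.25). Myd88, the gene of the adaptor of the pathway, had means of 2023, 1130, 1801 and 1124 and was 1.75-fold higher in Ly6Chi moDC than in CD14hi moDC (adjusted p = 0.0019). The median of the 10 genes between moDC and cDC was 0.09 on the log2 scale.

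Among other sensors and their partners, 11 genes of a list of 19 were tested, of which 4 were higher in the moDC, 1 was lower and 6 were not called, a share near the 41.5% of all genes called. P2rx7 encodes the channel through which extracellular ATP triggers NLRP3, and its signals were 1828, 2131 and 1912 in Ly6Chi moDC, 2077, 2074 and 1615 in CD14hi moDC, 522, 455 and 514 in CD14lo cDC, and 183, 295 and 376 in CD103+ cDC. All moDC arrays lay far above the cDC arrays, 4.71-fold on average (log2 difference 2.23 ± 0.14, adjusted p = 2.3e-10). Mefv, the gene of the sensor pyrin, was 1.87-fold higher in the moDC than in the cDC (log2 difference 0.90 ± 0.17, adjusted p = 0.00037), but differed more within each pair, with means of 1830 ± 566 in Ly6Chi moDC, 475 ± 200 in CD14hi moDC, 1968 ± 211 in CD14lo cDC and 82.6 ± 23.8 in CD103+ cDC (SD, n = 3 each). It was 15.3-fold higher in CD14lo cDC than in CD103+ cDC (3.94 ± 0.25, adjusted p = 1.0e-09). It was lower in CD14hi moDC than in CD14lo cDC (log2 difference -2.00 ± 0.25, adjusted p = 1.1e-05). For Mefv, CD103+ cDC replicates 1 and 2 lay below their array's median (55.3 against 82.6 and 93.5 against 103). The size of its folds that involve CD103+ cDC thus depends on the constant added to the signal. Over the alternative settings the log2 difference of 3.94 ran from 3.51 to 4.45. Panx1, of a channel that releases ATP, was 4.26-fold higher in CD14lo cDC than in CD103+ cDC (means 614 and 110, adjusted p = 4.2e-06). For Panx1, CD103+ cDC replicate 3 lay below its array's median (59.5 against 91.1). The size of this fold also depends on the added constant. Naip2, of a sensor family that detects bacterial secretion systems in mice, was 2.85-fold higher in the moDC (adjusted p = 1.8e-08), but near-identical copies of the gene make its probe set uncertain. Nek7, which NLRP3 needs for assembly, had means of 2962, 2985, 3078 and 3252, and its adjusted p in limma was 0.45 or more in all 7 comparisons.

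The 7 genes of executioners and brakes of the pathway were all tested: 3 were higher in the moDC, 2 were lower and 2 were not called, against 41.5% of all genes called. Gsdmd, whose product gasdermin D forms the pore through which interleukin 1 beta leaves the cell, had means of 3019, 3386, 3264 and 2924 and its adjusted p in limma was 0.25 or more in all 7 comparisons. Ninj1, whose product ruptures the membrane of dying cells, had signals of 4883, 4417 and 8274 in Ly6Chi moDC, 2596, 2399 and 2397 in CD14hi moDC, 1305, 1544 and 1169 in CD14lo cDC, and 1011, 983 and 1449 in CD103+ cDC. It was 2.26-fold higher in Ly6Chi moDC than in CD14hi moDC (log2 difference 1.18 ± 0.20, adjusted p = 0.00035) and 2.96-fold higher in the moDC than in the cDC. Serpinb1a, of an inhibitor of neutrophil proteases that has also been described as a brake on inflammatory caspases, ran the other way, with means of 62.9, 402, 525 and 1300. It was lower in Ly6Chi moDC than in CD14hi moDC (log2 difference -2.00 ± 0.20, adjusted p = 5.9e-07) and than in CD103+ cDC (-3.57 ± 0.20, adjusted p = 3.9e-11). All Ly6Chi moDC arrays lay below their array's median for Serpinb1a, so the size of these differences depends on the added 50. Ripk3 and Casp8, of a kinase and a protease of other death pathways that can feed into interleukin 1 beta cutting, were 3.05-fold and 2.43-fold higher in Ly6Chi moDC than in CD103+ cDC (adjusted p = 2.3e-07 and 6.5e-07).

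**Figure D4:**
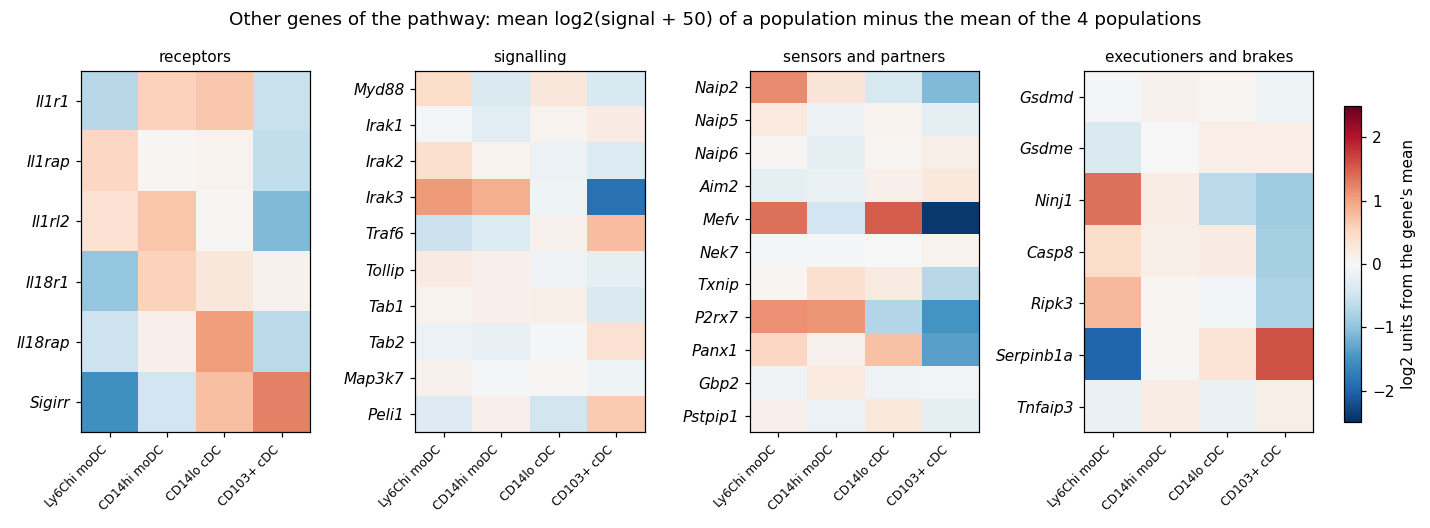
Mean log2(signal + 50) of each population (columns) minus the mean of the 4 populations, for the tested genes of the 4 pathway lists (rows), on a colour scale in log2 units. Red is above and blue below the mean of the gene. Irak3 and P2rx7 are red in both moDC populations, Sigirr and Serpinb1a are red in CD103+ cDC and blue in Ly6Chi moDC, and Gsdmd and Nek7 are near white throughout.

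Genes whose pattern was most like that of a member were ranked by Pearson's correlation of log2(signal + 50) over the 12 arrays, which share 4 populations, so a coefficient mostly reflects population means. For Il1rn these were Cxcl10 (r = 0.989), Slc16a10 (0.974) and Ets2 (0.974). Cxcl10, the gene of a T cell chemokine, averaged 8281 ± 481 in Ly6Chi moDC, 6260 ± 1148 in CD14hi moDC, 3479 ± 1001 in CD14lo cDC and 1398 ± 680 in CD103+ cDC (SD, n = 3 each), the order of Il1rn. For Il1b they were Ifitm3 (0.950), Ctsh (0.940) and Ifi27l2a (0.928), all lower in CD103+ cDC than in the other populations by their means. For Il1a they were Pon2 (0.937), Ap2m1 (0.934) and Dtx4 (0.933), and for Il18 Trpm2 (0.853), Pced1b (0.835) and Naa16 (0.834). Among the members themselves, Pycard and Casp1 (0.902), Il1rn and Nlrp3 (0.899) and Il1a and Il18bp (0.888) were most alike, and Il18 and Il1r2 least (-0.661). The coefficient of Il1b was 0.877 with Il1rn and 0.255 with Il1a.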

How the data were processed

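The authors deposited MAS5 signal intensities, 1 value per probe set and array on a linear scale. The method name comes from the submitters' processing notes; the version, the scaling target and any detection call were not given in the sources used here. On every array a mean trimmed by 2% came to 500.003, so the arrays had been scaled to a common mean. Per the labels, each of the 12 arrays holds RNA of cells from 20 mice. The labels do not say that equal replicate numbers share mice or a day, and p-values measure the spread between these pools.

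Of 45101 probe sets, 64 controls were left out. Those with 1 gene symbol in the platform annotation numbered 34945, with several 932 and with none 9160. Probe sets above the median of their array on at least 3 of 12 arrays were kept (25156), and the one with the highest mean stood for its gene. The intensities as deposited became log2(signal + 50) and were fitted over 4 population means with limma 3.58.1 in R 4.3.3 (lmFit, eBayes with an intensity trend, 8 residual degrees of freedom), two-sided, with Benjamini-Hochberg adjustment over 10934 genes. The script was tested on simulated data. Plots were made in matplotlib 3.10.9 under Python 3.11.15.

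The 7 comparisons were moDC over cDC and the 6 pairs of populations. The members and the 4 pathway lists were chosen with earlier results of these data known. All members are named; of each list, the called genes with the largest difference in a comparison, up to 3, were eligible to be named, with genes the background mentions; likeness was by Pearson correlation over 12 arrays, 3 genes for each of Il1a, Il1b, Il1rn and Il18. List genes with no probe set of their own were not analysed here.

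Alternatives were quantile normalization, centring on the array median, pseudocounts of 10 and 100, each probe set tested singly, averaging the probe sets of a gene, no filter or one at the 75th percentile, fits limited to the arrays compared, no trend, the replicate number as a block, each array left out in turn, and CD103+ cDC replicates 1 and 3 left out together.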

Additional observations from a re-analysis of the deposited data

How the results depend on the processing

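Of the 70 differences (10 genes in 7 comparisons) 43 were called. Of these, 29 stayed called in every setting, 14 were lost in at least 1, and no called difference changed sign. Il1rn, Il1b and Casp1 kept all their calls, as did Pycard and both moDC populations' Nlrp3 against CD103+ cDC. The number of the 10 genes called between Ly6Chi moDC and CD14hi moDC was 1, but 2 with centring on the array median, with only the arrays compared or with the replicate block, and 0 when the probe sets of a gene were averaged, where Pycard had an adjusted p of 0.24 (limma). With single arrays left out, the counts ranged from 7 to 8 for moDC over cDC, 1 to 2 for Ly6Chi moDC over CD14hi moDC, 4 to 6 for Ly6Chi moDC over CD14lo cDC, 6 to 8 for Ly6Chi moDC over CD103+ cDC, 4 to 5 for CD14hi moDC over CD14lo cDC, 6 to 7 for CD14hi moDC over CD103+ cDC and 6 to 10 for CD14lo cDC over CD103+ cDC. The lowest, 6, came without CD14lo cDC replicate 3.

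Signs changed only for differences that were not called, and the cause was not tested. For Ly6Chi moDC over CD14hi moDC, centring gave 0.10 for Casp1 and 0.11 for Il1b, and quantile normalization 0.20 for Il1b. For CD14hi moDC over CD14lo cDC, centring gave -0.037 for Casp4 and quantile normalization -0.062 for Il1b. For CD14hi moDC over CD103+ cDC, centring gave -0.0050 for Il1r2. With single arrays left out, Ly6Chi moDC over CD14hi moDC ranged from -0.057 to 0.032 for Casp1, -0.16 to 0.24 for Il1b, -0.059 to 0.46 for Il1a and -0.16 to 0.49 for Nlrp3. CD14hi moDC over CD14lo cDC ranged from -0.14 to 0.10 for Casp4 and -0.11 to 0.29 for Il1b, and CD14hi moDC over CD103+ cDC from -0.36 to 0.44 for Il1r2. Ly6Chi moDC over CD103+ cDC ranged from -0.022 to 0.15 for Il18, and Ly6Chi moDC over CD14lo cDC from -0.044 to 0.26 for Il1b.

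Centring moved the median of all genes between Ly6Chi moDC and CD14hi moDC from -0.0090 to 0.10 and turned 745 higher and 1248 lower genes into 1189 and 1012. Without CD103+ cDC replicates 1 and 3, 2439 genes were called for CD14hi moDC over CD103+ cDC in place of 4068, and 1734 for CD14lo cDC over CD103+ cDC in place of 3142. Tested singly, 25156 probe sets replaced 10934 genes and the calls, over more features, numbered 9003, 3909, 5272, 10599, 3155, 8006 and 6016 in place of 4537, 1993, 2757, 5193, 1770, 4068 and 3142, for moDC over cDC and then the pairs in the order above. Of 18 pairs of arrays with equal replicate numbers 8 correlated above 0.1 (range -0.106 to 0.236, median 0.057), and of 36 pairs with other numbers 4 did (median -0.019), with 2 of 12 arrays closest to their own number in all populations. Not every equal-numbered pair exceeded 0.1, so the numbers were not taken as pairing, though the medians leave a hint of it. With the replicate block 8 of the 10 genes were called for moDC over cDC, with Il1r2 added, 2 for Ly6Chi moDC over CD14hi moDC, with Il1r2 added, and 5 for CD14hi moDC over CD14lo cDC, with Nlrp3 added (0.030). Casp4 in CD14lo cDC over CD103+ cDC was called in 12 of 24 settings. With 3 arrays a population, and no detection calls, differences of dim probe sets such as Il1r1 are the least certain.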
